A study of Mus musculus with 52 samples.

Results

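The first hours after surgical removal of liver tissue are called priming, and the gene expression of mouse liver 6 hours after partial hepatectomy was compared here with that 1 hour after it. The comparison used the 7 arrays whose titles name these times, 3 at 1 hour and 4 at 6 hours, of the 52 arrays of the study. All 7 hold RNA of whole liver from C57Bl6/N mice labelled male, aged 8 to 12 weeks per the design text, fed a standard diet without restriction and subjected to the removal of 2/3 of the liver. Both groups had therefore been operated on, and no untreated liver enters the contrast. The rest of the study followed the same operation up to 3 months and included 5 untreated livers. No sham-operated group was analysed here, so effects of anaesthesia and surgery cannot be told apart from those of tissue loss. The labels give no clock time, and the 5 hours between the groups also pass on the daily cycle, so time after the operation cannot be told apart from time of day. The labels do not say that each array came from a mouse of its own. The p-values then measure only the spread between samples, which the main fit takes from all 52 arrays and not from these 7 alone.

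In the textbook account of priming, Kupffer cells, the resident macrophages of the liver, release tumour necrosis factor and interleukin-6. Interleukin-6 and related cytokines bind hepatocyte receptors that share the subunit gp130, encoded by Il6st, and activate the transcription factor STAT3, while tumour necrosis factor and interleukin-1 act through NF-kB. Immediate early genes respond first because their transcription needs no new protein. Acute phase proteins, which the liver secretes into blood during inflammation, and feedback inhibitors such as SOCS3 follow. Quiescent hepatocytes move towards the G1 phase of the cell cycle in this window, and DNA replication comes later.

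Every value below is a log2 level as deposited, so a difference of 1 is a 2-fold difference, and levels of different genes are not comparable. Changes are 6 hours minus 1 hour on the log2 scale with their standard error, from a limma fit of all 52 arrays, and a gene rose or fell where its Benjamini-Hochberg adjusted p over 18193 genes was under 0.05. Array values are listed in the order of the replicate numbers. Arrays of 1 time correlated more closely (r 0.9905 to 0.9925 at 1 hour and 0.9948 to 0.9957 at 6 hours) than arrays of different times did (0.969 to 0.973). The mean of the hybridization controls, transcripts added in fixed amounts, lay between 10.10 and 10.57 at 1 hour and between 10.20 and 10.26 at 6 hours. Single 1-hour arrays stood apart in several gene lists, and examples follow. Among the 3 arrays at 1 hour, replicate 2 held the highest level of 24 of 26 acute phase genes, 15 of 15 Kupffer cell markers and 9 of 13 neutrophil markers, against 34.2% of all genes. Replicate 3 held the highest level of 20 of 27 genes of the urea cycle and amino acid breakdown, 22 of 34 of ribosome biogenesis, 15 of 21 clock genes and 12 of 18 heat shock chaperones, against 31.4% of all genes. The counts for these lists without the array that stands apart are given beside them.

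Between 1 and 6 hours 1980 of the 18193 genes changed, which is 10.9%. Of these, 809 genes rose (4.45% of those tested) and 1171 fell (6.44%), and 918 changed at least 2-fold. The change was 8-fold or larger for 30 genes that rose and 15 that fell. The median change over all genes was -0.02, and the 2 groups of arrays did not overlap for 33.1% of all genes (14% higher and 19% lower at 6 hours). Leaving out 1 array lowered the count to between 1294 (without 1-hour replicate 1) and 1637 (without 6-hour replicate 3). A fit of the 7 arrays alone called 4795 genes. That fit takes the spread from these 7 arrays, while the fit of 52 arrays takes it from all 12 groups. Of the genes named below that did not pass, 25 passed in the fit of the 7 arrays alone, and its adjusted p is given beside each.

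**Figure D1:**
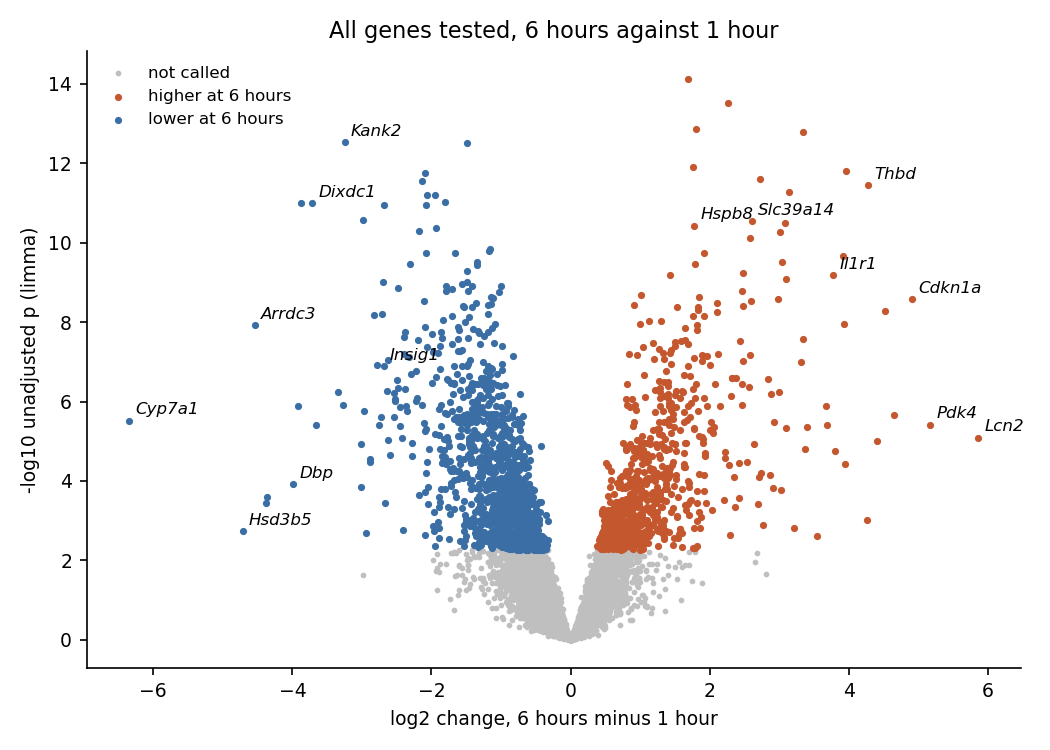
Each point is a gene, with its change from 1 to 6 hours (6 hours minus 1 hour, log2) on the x axis and -log10 of its unadjusted p on the y axis; genes past the threshold are coloured by direction, 809 higher and 1171 lower at 6 hours. Lcn2, Pdk4 and Cdkn1a lie farthest to the right among the labelled genes and Cyp7a1 farthest to the left.

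**Figure D2:**
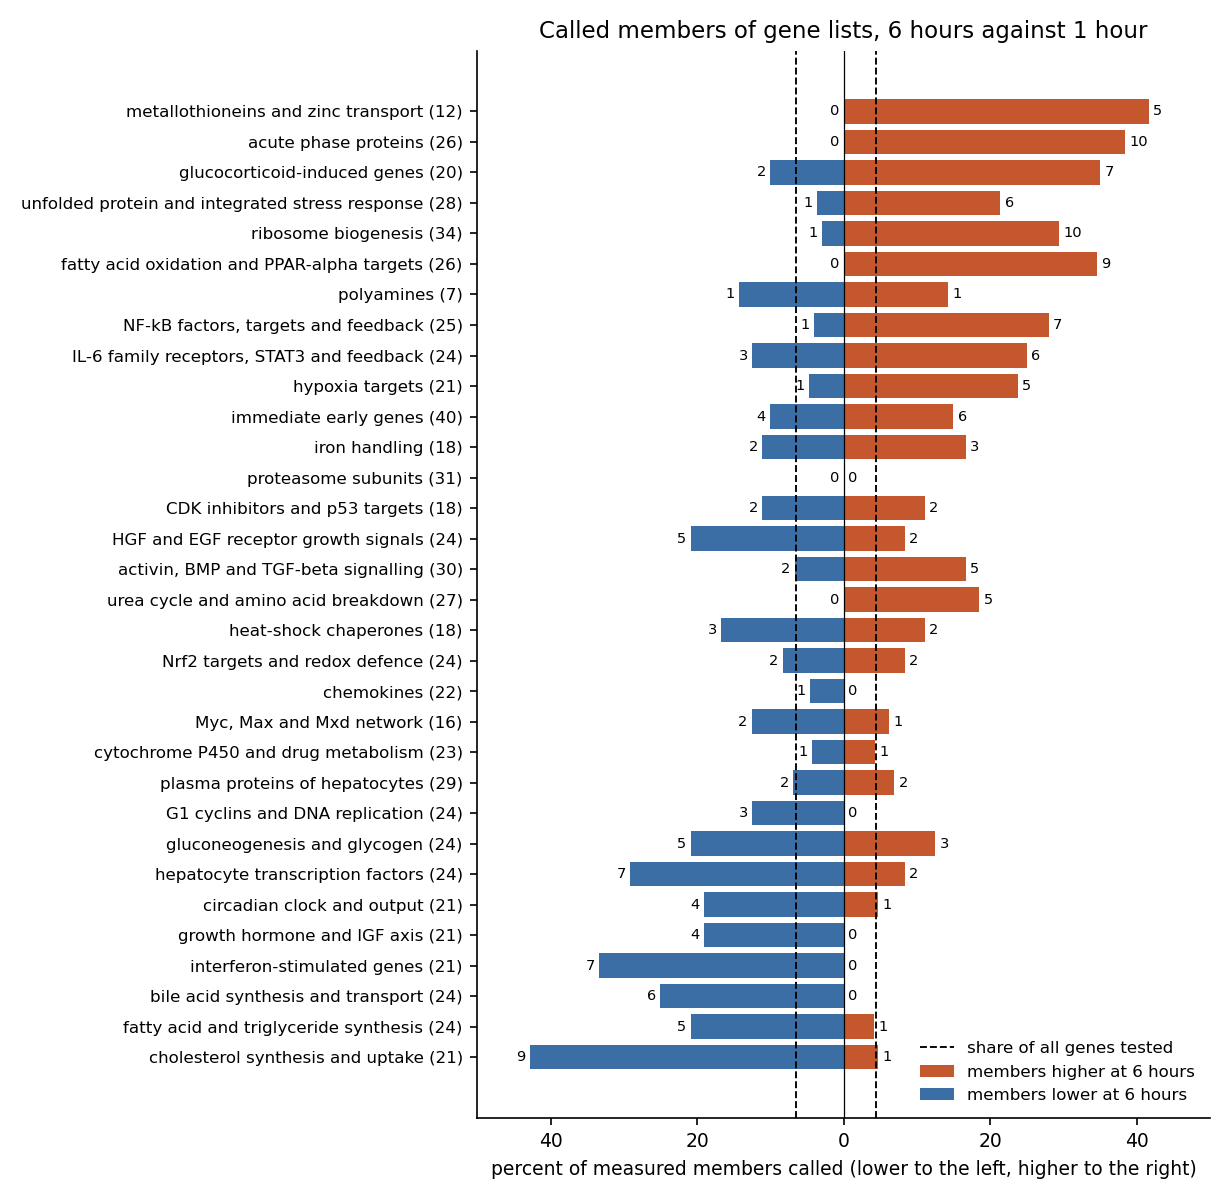
For each gene list, the bars give the percent of its measured members that rose (to the right) and fell (to the left) between 1 and 6 hours, with dashed lines at the percent of all genes that did (4.45% and 6.44%). Metallothioneins, acute phase proteins and fatty acid oxidation lie to the right only, cholesterol synthesis mostly to the left, and the proteasome list has 0 members in either direction.

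Immediate early genes did not move as a block. Of 40 measured, 6 rose, 4 fell and 30 did not pass, with a median change of 0.10. Jun, a subunit of the AP-1 transcription factor, was at 10.29, 9.90 and 9.92 in the arrays at 1 hour and at 8.05, 8.06, 7.86 and 7.83 at 6 hours. It fell 4.25-fold (-2.09 ± 0.51, adjusted p = 0.0039), and no 6-hour array reached the lowest 1-hour array. Dusp1, a phosphatase that switches off MAP kinases, read 10.96, 10.37 and 10.71 and then 8.36, 7.97, 8.53 and 8.41, a fall of 5.14-fold (-2.36 ± 0.42, adjusted p = 7.8e-05). Ccn1, a matricellular protein induced by growth factors, fell as well (-2.39 ± 0.35, adjusted p = 4e-06), while its relative Ccn2, a target of TGF-beta and YAP, rose (1.73 ± 0.44, adjusted p = 0.0057).

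The 6 members that rose included Ier5, Klf4 and Dusp5. Ier5, a regulator of the heat shock response, had 4.65, 4.37 and 4.43 at 1 hour and 6.45, 6.38, 6.21 and 6.21 at 6 hours (1.83 ± 0.25, adjusted p = 1.1e-06), without overlap. Klf4, a zinc-finger transcription factor, changed by 1.28 ± 0.32, adjusted p = 0.0047, or 1.07, adjusted p = 0.061 without 1-hour replicate 2, and Dusp5, a phosphatase of nuclear ERK, by 0.91 ± 0.19, adjusted p = 0.00052. Several of the best-known members did not pass. Fos, the partner of Jun in AP-1, had 10.51, 9.49 and 9.15 against 8.33, 8.08, 8.37 and 7.62 (-1.62 ± 0.89, adjusted p = 0.31). Its groups did not overlap, and the fit of the 7 arrays alone put it past the threshold (adjusted p = 0.0015). Egr1 (-0.54 ± 0.66, adjusted p = 0.78) and Myc (-0.73 ± 0.57, adjusted p = 0.56), both transcription factors of the early growth response, had overlapping groups, though Myc passed in the fit of the 7 arrays alone (adjusted p = 0.023). In the fit of the 7 arrays alone 14 members rose and 14 fell.

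In the interleukin-6 and STAT3 pathway 6 of 24 measured members rose, 3 fell and 15 did not pass, with a median change of 0.22. The 6 that rose were receptor, STAT, feedback and target genes, among them Osmr, Il6st, Stat3 and Socs3. Osmr, the receptor chain for oncostatin M, had 3.16, 4.09 and 3.69 at 1 hour, where its mean lay at or below the median of all probe sets, and 7.05, 7.40, 7.43 and 7.37 at 6 hours. The rise was at least 10.0-fold (3.67 ± 0.66, adjusted p = 7.8e-05). Il6st, which encodes gp130, rose 2.02-fold (1.01 ± 0.24, adjusted p = 0.0028). Stat3 itself went from 8.02, 8.53 and 8.07 to 9.78, 9.78, 9.70 and 9.86, a 2.98-fold rise (1.57 ± 0.28, adjusted p = 5.6e-05), and all arrays at 6 hours lay above all arrays at 1 hour. Bcl3, an atypical IkB protein and STAT3 target, rose 3.91-fold (1.97 ± 0.35, adjusted p = 8.1e-05).

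Socs3, which binds gp130 and blocks the JAK kinases, had 8.86, 8.70 and 7.53 at 1 hour and 11.15, 11.22, 10.83 and 11.09 at 6 hours. It rose 6.54-fold (2.71 ± 0.62, adjusted p = 0.002), with no overlap between the groups. Among the members that fell were the kinase gene Tyk2 (-0.73 ± 0.13, adjusted p = 4.9e-05) and Pias3 (-0.85 ± 0.21, adjusted p = 0.0055), which encodes an inhibitor of STAT3. The ligand genes Il6 (-0.07 ± 0.37, adjusted p = 0.97), Lif (0.09 ± 0.18, adjusted p = 0.89) and Osm (0.15 ± 0.15, adjusted p = 0.69) did not pass. Il6 lay between 1.71 and 2.10 over the 7 arrays, below the median of all probe sets, so its level was not separated from background. The transcription factor gene Cebpd, an early target of STAT3, had 7.55, 7.66 and 8.12 and then 9.21, 9.20, 9.07 and 9.06. Its groups did not overlap but it did not pass (1.36 ± 0.49, adjusted p = 0.069), and it did in the fit of the 7 arrays alone (adjusted p = 2.7e-05).

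The 250 bases before the start of Socs3 hold a match to the STAT motif TTCNNNGAA, which reads the same on both strands. The window is shown because the gene is the feedback arm of the pathway. Sequences here come from RefSeq on GRCm38.p6 and run 5′ to 3′ along the gene, with the match in capitals. The Socs3 window is chr11:117969367-117969616 on the minus strand, and its match starts 154 bases before the gene start and overlaps none of the other motifs searched.
Socs3: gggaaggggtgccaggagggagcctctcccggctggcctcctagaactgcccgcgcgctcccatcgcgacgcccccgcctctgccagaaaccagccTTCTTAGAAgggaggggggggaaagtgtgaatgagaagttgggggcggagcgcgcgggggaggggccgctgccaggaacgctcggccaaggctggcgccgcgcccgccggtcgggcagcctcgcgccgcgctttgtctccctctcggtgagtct
This was the only match among the 31 promoter windows of the list's genes (3.23%). The motif is present in 7.02% of all 32851 promoter windows of this length and in 6.21% of the 18009 windows of genes tested. A match describes letters and not binding.

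NF-kB genes showed 7 members that rose, 1 that fell and 17 that did not pass, of 25 measured, with a median change of 0.26. Receptors made up the clearest part. Il1r1, the signalling receptor for interleukin-1, had 6.92, 6.53 and 6.49 at 1 hour and 10.48, 10.46, 10.33 and 10.40 at 6 hours, a 13.7-fold rise (3.77 ± 0.48, adjusted p = 2.7e-07), while another of its probe sets gave -0.13. Tnfrsf1a, the main receptor for tumour necrosis factor, went from 8.60, 9.10 and 8.48 to 10.16, 9.94, 9.97 and 9.93, a 2.42-fold rise (1.27 ± 0.19, adjusted p = 6.8e-06). Nfkbib, an inhibitor that holds NF-kB in the cytoplasm, rose 2.33-fold (1.22 ± 0.21, adjusted p = 4e-05). These 3 kept their calls whichever array was left out. The other 4 that rose did not, and the count was 4 without 1-hour replicate 1, 1-hour replicate 3 or 6-hour replicate 1 and 3 without 6-hour replicate 4. The single fall ended without 1-hour replicate 2. Nfkbia, the inhibitor that NF-kB induces most directly, differed by -0.29 ± 0.33, adjusted p = 0.76, or adjusted p = 0.041 in the fit of the 7 arrays alone, and Tnf by -0.26 ± 0.17, adjusted p = 0.44.

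Acute phase genes rose where they changed. Of 30 listed, 26 were measured, and 10 rose, 0 fell and 16 did not pass, with a median change of 0.80. Serpina3n, a secreted inhibitor of serine proteases, had 8.61, 9.80 and 8.51 at 1 hour and 12.10, 12.17, 11.95 and 12.07 at 6 hours. It rose 8.54-fold (3.10 ± 0.59, adjusted p = 0.00021) and its groups did not overlap. Steap4, a metalloreductase induced by cytokines, went from 8.90, 9.95 and 9.48 to 12.94, 12.75, 12.59 and 12.73, a rise of 9.91-fold (3.31 ± 0.52, adjusted p = 1.2e-05). Both kept their calls when any of the 7 arrays was left out. Without 1-hour replicate 2 the change was 3.51, adjusted p = 0.00036 for Serpina3n and 3.56, adjusted p = 5.8e-05 for Steap4.

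Lcn2, which binds bacterial iron carriers, had the largest rise of all named genes. It read 5.08, 10.66 and 4.41 at 1 hour, with replicate 2 far above the other two, and 12.57, 12.55, 12.55 and 12.63 at 6 hours. The rise was 58.1-fold (5.86 ± 1.16, adjusted p = 0.00033). Its size depends on the 1-hour arrays, and it was 7.83, adjusted p = 1.1e-05 without replicate 2, 5.04, adjusted p = 0.0095 without replicate 1 and 4.71, adjusted p = 0.014 without replicate 3. The serum amyloid gene Saa1 read 9.24, 13.51 and 8.82 and then 13.74, 13.75, 13.76 and 13.72 (3.21 ± 0.95, adjusted p = 0.02). Saa2 read 7.34, 13.17 and 7.12 and then 13.48, 13.43, 13.51 and 13.46 (4.26 ± 1.20, adjusted p = 0.014). For both, 1-hour replicate 2 lay within 1 unit of the 6-hour arrays and the other two lay at least 3 units below them.

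Without 1-hour replicate 2 the change was 4.71, adjusted p = 0.001 for Saa1 and 6.24, adjusted p = 0.00051 for Saa2. Without replicate 1 it was 2.57, adjusted p = 0.17 and 3.32, adjusted p = 0.15, and without replicate 3 it was 2.36, adjusted p = 0.2 and 3.21, adjusted p = 0.16, so both calls ended. Orm2, an orosomucoid that carries lipophilic compounds in plasma, had 5.99, 12.22 and 6.33 against 9.82, 9.90, 10.20 and 10.37, so that 1-hour replicate 2 was the highest of the 7. It did not pass (1.90 ± 0.88, adjusted p = 0.2), but it did without 1-hour replicate 2 (3.92, adjusted p = 0.00056). The list as a whole had 14 members that rose without 1-hour replicate 2, 4 without replicate 1 and 3 without replicate 3. Kupffer cell markers moved with the same array. Their summed level was 11.36, 11.96 and 10.75 at 1 hour and 9.91 to 10.18 at 6 hours, so the groups did not overlap with or without replicate 2. The sum adds unlogged levels, so bright members weigh heavily in it. Among these is the iron exporter gene Slc40a1, the 1 marker that fell (-2.50), which hepatocytes carry too. Of the 15 markers 2 (Timd4 and Cd68) lay at or below the median of all probe sets at both times. The part of the Kupffer cell markers in the acute phase result was not tested.

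**Figure D3:**
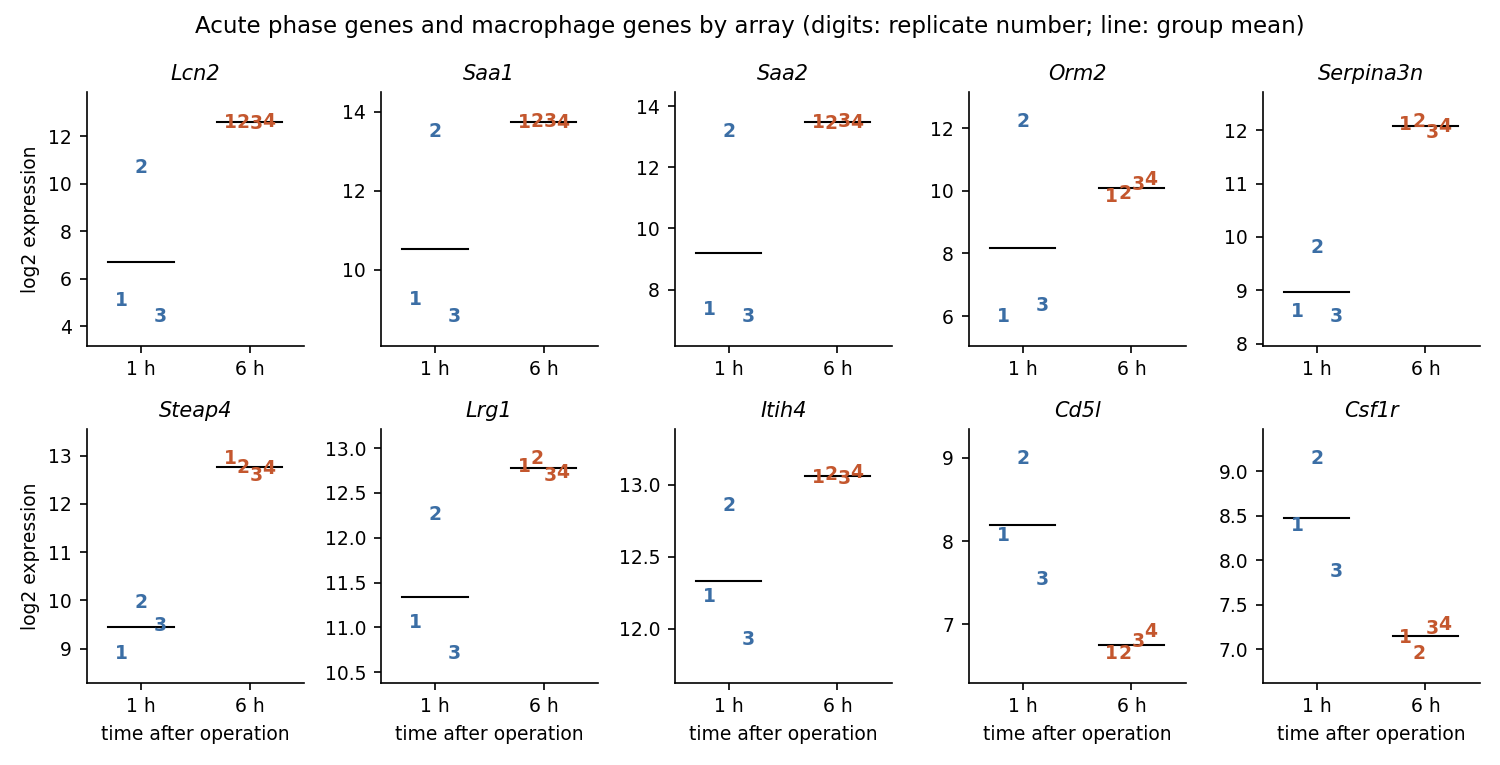
Log2 level of 8 acute phase genes and of the macrophage genes Cd5l and Csf1r in each array at 1 hour (3 arrays) and 6 hours (4 arrays), with each point drawn as its replicate number and a bar at the group mean. For Lcn2, Saa1, Saa2 and Orm2 replicate 2 at 1 hour lies far above the other 1-hour arrays, for Orm2 also above the 6-hour arrays, and for Cd5l and Csf1r it is the highest of the 7.

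Some members with small changes lost their calls when single arrays were left out. The count over all genes fell as well whenever 1 array was left out. Lrg1, a secreted glycoprotein, rose 2.71-fold (1.44 ± 0.36, adjusted p = 0.0043) but not without 1-hour replicate 3 (1.12, adjusted p = 0.075), while it did without replicate 2 (1.90, adjusted p = 0.00067). Itih4, a plasma inhibitor-family protein, rose (0.73 ± 0.20, adjusted p = 0.0098) but not without 1-hour replicate 1 (0.67, adjusted p = 0.06) or replicate 3 (0.52, adjusted p = 0.15), while it did without replicate 2 (0.99, adjusted p = 0.0013). Of the members that did not pass, Saa3, an amyloid made also by macrophages, had 6.04, 7.27 and 6.68 against 9.77, 9.31, 9.03 and 9.15 without overlap (2.65 ± 1.00, adjusted p = 0.087, or adjusted p = 2.3e-05 in the fit of the 7 arrays alone). Cd14, a receptor for endotoxin that macrophages and hepatocytes carry, had 4.70, 5.28 and 4.60 and then 8.79, 7.35, 7.42 and 7.12 (2.81 ± 1.18, adjusted p = 0.14, or adjusted p = 0.00011 in the fit of the 7 arrays alone). Hamp, which encodes the iron hormone hepcidin, differed by 0.87 ± 0.61, adjusted p = 0.49, or adjusted p = 0.00071 in the fit of the 7 arrays alone. These 3 did not pass without 1-hour replicate 2 either, where Saa3 differed by 2.96, adjusted p = 0.12, Cd14 by 3.02, adjusted p = 0.21 and Hamp by 0.69, adjusted p = 0.75.

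The STAT motif was present in 6 of 24 promoter windows of the list (25%), beside the 6.21% of windows of genes tested. These were the windows of Apcs, Fga, Fgb, Hamp, Itih4 and Steap4. Lists with 0 rises had similar shares, 22.7% for bile acid genes and 20% for interferon-stimulated genes, so the share is not particular to acute phase genes. Apcs and Hamp did not pass. The small rises of Fga (0.53) and Fgb (0.43) lost their calls when any array but 1-hour replicate 2 was left out. Windows of 2 members are shown, 1 with a large change and 1 with a small change, with the match in capitals. That of Steap4 is chr5:7960222-7960471 on the plus strand with its match 116 bases before the start, and that of Itih4 is chr14:30886226-30886475 on the plus strand with its match 51 bases before the start.
Steap4: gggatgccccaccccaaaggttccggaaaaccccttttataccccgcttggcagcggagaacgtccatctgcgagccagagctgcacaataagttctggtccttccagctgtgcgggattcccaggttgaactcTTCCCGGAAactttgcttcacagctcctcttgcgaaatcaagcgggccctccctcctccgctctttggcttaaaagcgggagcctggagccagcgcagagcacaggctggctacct
Itih4: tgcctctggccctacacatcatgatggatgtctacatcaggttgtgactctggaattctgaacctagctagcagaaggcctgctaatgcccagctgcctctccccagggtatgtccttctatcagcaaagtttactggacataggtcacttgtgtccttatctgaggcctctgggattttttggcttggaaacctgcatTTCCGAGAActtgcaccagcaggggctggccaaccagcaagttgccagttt
Saa1 and Saa2 are close copies, and their windows were identical in 238 of 251 aligned columns (94.8%). They are shown with each base that differs or has no partner in capitals, Saa1 at chr7:46742981-46743230 on the minus strand and Saa2 at chr7:46751583-46751832 on the plus strand. Neither holds the STAT motif. Probe sets of such near-identical genes may detect both RNAs, so the values of the pair are not independent.
Saa1: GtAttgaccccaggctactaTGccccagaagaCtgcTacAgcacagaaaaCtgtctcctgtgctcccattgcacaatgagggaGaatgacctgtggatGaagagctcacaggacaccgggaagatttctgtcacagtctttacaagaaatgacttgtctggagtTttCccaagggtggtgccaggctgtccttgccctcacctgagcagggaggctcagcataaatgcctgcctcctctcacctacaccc
Saa2: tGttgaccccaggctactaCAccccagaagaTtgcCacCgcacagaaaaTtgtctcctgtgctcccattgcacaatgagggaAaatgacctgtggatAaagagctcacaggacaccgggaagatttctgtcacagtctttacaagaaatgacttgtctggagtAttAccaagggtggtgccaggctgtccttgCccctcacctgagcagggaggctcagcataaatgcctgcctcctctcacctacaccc

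Metal handling changed next to the acute phase genes. Of 12 measured genes of metallothioneins and zinc transport 5 rose, 0 fell and 7 did not pass, with a median change of 1.00. Slc39a14, a transporter that brings zinc into hepatocytes during inflammation, had 8.50, 8.41 and 8.48 at 1 hour and 11.11, 10.93, 11.11 and 11.12 at 6 hours, a 6.08-fold rise (2.60 ± 0.30, adjusted p = 2.3e-08). Slc30a5, which moves zinc into the secretory pathway, rose 2.68-fold (1.42 ± 0.29, adjusted p = 0.00055). The zinc-binding metallothionein Mt2 read 11.14, 11.75 and 9.75 and then 13.10, 13.03, 13.11 and 13.11 (2.21 ± 0.56, adjusted p = 0.0058), and Mt1 changed alike (1.94 ± 0.50, adjusted p = 0.0064). The call of Mt2 ended without 1-hour replicate 3 (1.64, adjusted p = 0.11), that of Mt1 ended there too (1.47, adjusted p = 0.1) and with the mean of its probe sets (adjusted p = 0.084). The list then had 2 members that rose. The metal response core, TGCACNC or TGCGCNC on either strand, was present in 6 of 12 promoter windows of the list (50%) and in 27% of those of genes tested. Lists outside metal handling had similar shares, such as 53.8% for hypoxia targets and 50% for clock genes.

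Of 18 iron genes 3 rose and 2 fell, and 2 of the 3 that rose, Lcn2 and Steap4, are also acute phase genes. Slc40a1, which encodes ferroportin, the only known exporter of cellular iron, had 9.91, 10.02 and 9.10 at 1 hour and 7.16, 6.88, 7.23 and 7.45 at 6 hours. It fell 5.65-fold (-2.50 ± 0.41, adjusted p = 2.6e-05) with no overlap. Kupffer cells and hepatocytes both carry it, and in whole liver fewer cells of a type and less RNA per cell cannot be told apart. Hjv, a co-receptor that promotes hepcidin expression, fell 1.98-fold (-0.99 ± 0.22, adjusted p = 0.0014).

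Among cell cycle genes the inhibitor Cdkn1a stood out. Cdkn1a, which encodes p21, a brake on cyclin-dependent kinases, had 5.29, 4.95 and 5.06 at 1 hour and 10.23, 9.70, 10.09 and 10.02 at 6 hours. The rise was 30.1-fold (4.91 ± 0.66, adjusted p = 7.6e-07), with more than 4 units between the highest 1-hour array and the lowest 6-hour array. Of 18 CDK inhibitors and p53 targets 2 rose, 2 fell and 14 did not pass. Cdkn1a was the single rise without any 1 of the arrays but 6-hour replicate 3, and 0 fell without 1-hour replicate 1. The p53 targets Mdm2 (-0.47 ± 0.19, adjusted p = 0.12) and Ccng1 (-0.48 ± 0.21, adjusted p = 0.15) did not pass, though both did in the fit of the 7 arrays alone (adjusted p = 0.012 and adjusted p = 0.0029). Of 24 G1 cyclins and replication genes 0 rose and 3 fell, with a median change of -0.19. The share called was 12.5%, near the 10.9% of all genes. Cdk6, a partner of D cyclins, fell 2.56-fold (-1.36 ± 0.24, adjusted p = 6.5e-05), and the other two calls ended without 1-hour replicate 3. Ccnd1, the main hepatic D cyclin (-0.72 ± 0.68, adjusted p = 0.67), and Mki67, a marker of dividing cells (-0.25 ± 0.87, adjusted p = 0.95), did not pass.

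Growth factor signalling genes went both ways, with 5 of 24 that fell, 2 that rose and 17 that did not pass, and a median change of 0.04. Met, the receptor of hepatocyte growth factor, had 8.67, 8.74 and 8.92 and then 7.53, 7.88, 7.87 and 7.92, a 1.97-fold fall (-0.98 ± 0.15, adjusted p = 1.3e-05). Erbb3, a partner of the EGF receptor, fell 2.40-fold (-1.26 ± 0.24, adjusted p = 0.00016), and Lrig1, which promotes the breakdown of EGF receptors, fell too (-0.84 ± 0.17, adjusted p = 0.00049). The other 2 falls ended whenever any 1 of the 7 arrays was left out, and the count was then 3. Spred1, an inhibitor of RAS signalling, rose (0.96 ± 0.22, adjusted p = 0.0015), as the single rise without 1-hour replicate 1 or 3 or 6-hour replicate 1 or 3. The ligand genes Hgf (0.38 ± 0.23, adjusted p = 0.37, or adjusted p = 0.026 in the fit of the 7 arrays alone) and Hbegf (0.01 ± 0.21, adjusted p = 0.99) did not pass.

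Genes of BMP and activin signalling gave 5 rises and 2 falls among 30. Id1, a direct target of BMP signalling, had 5.92, 5.56 and 5.32 at 1 hour and 8.35, 8.27, 8.11 and 8.21 at 6 hours, a 6.22-fold rise (2.64 ± 0.54, adjusted p = 0.00044). Inhbe, which encodes the hepatic activin subunit, rose 5.36-fold (2.42 ± 0.53, adjusted p = 0.001). Bmper, a secreted BMP-binding protein, was near background at 1 hour with 3.04, 3.15 and 2.99 and reached 6.61, 6.87, 7.09 and 7.47, at least 8.11-fold higher (3.95 ± 0.86, adjusted p = 0.0011). These 3 rises remained when any array was left out, whereas the count of rises was 3 without 1-hour replicate 2. The count of falls was 0 without 1-hour replicate 1 or 2 or 6-hour replicate 2, 1 without 1-hour replicate 3 or 6-hour replicate 3 and 3 without 6-hour replicate 1.

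**Figure D4:**
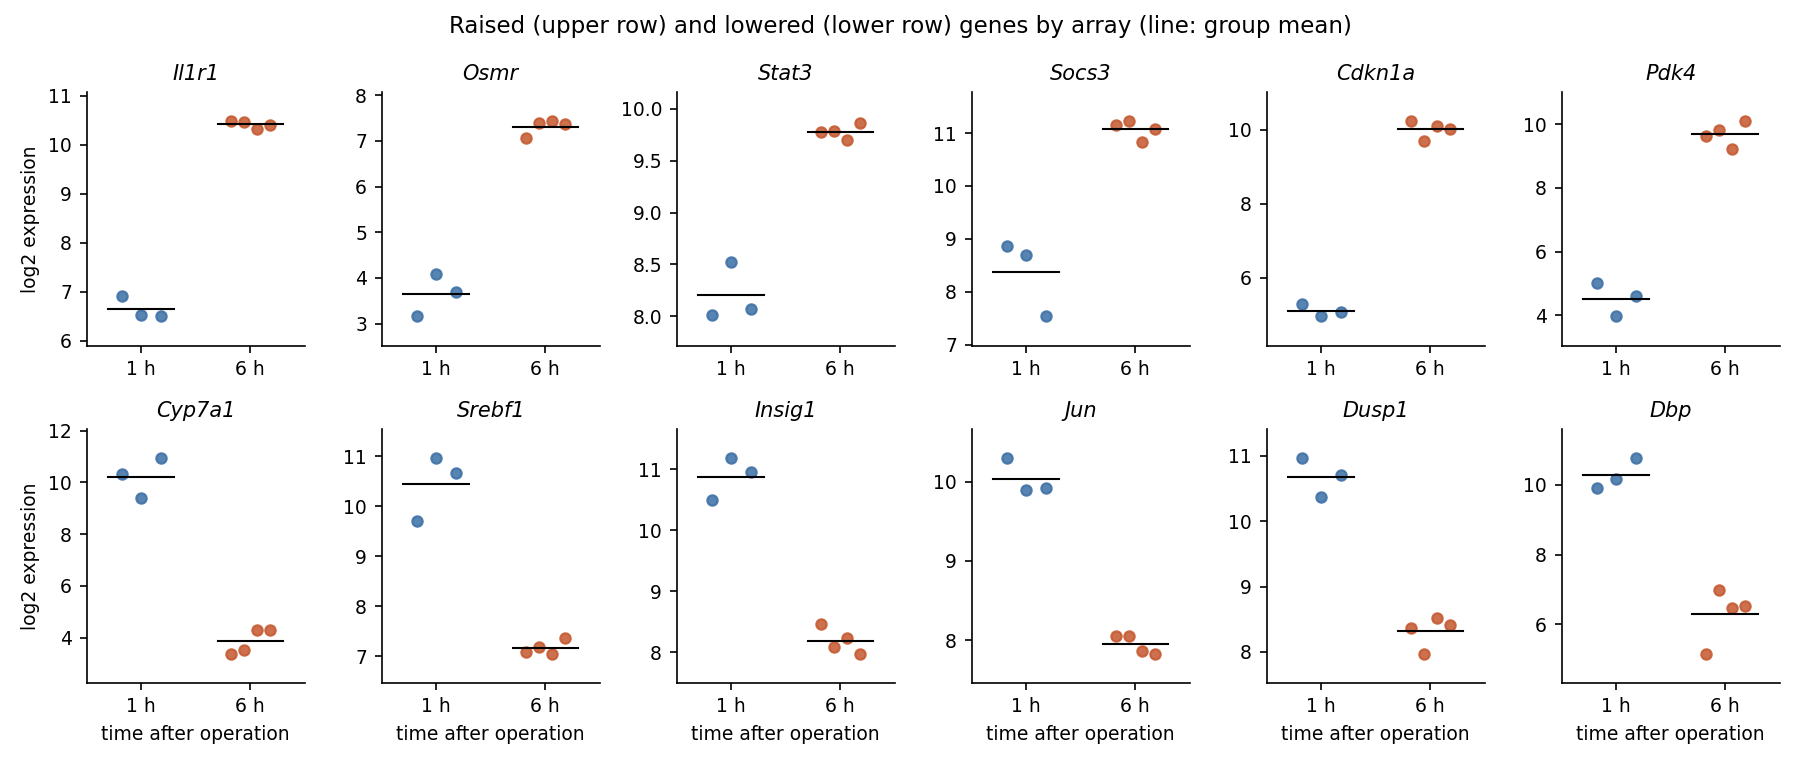
Log2 level of 12 genes in each array at 1 hour and 6 hours, with each array drawn as a point and a bar at the group mean. The upper row holds genes higher at 6 hours (Il1r1, Osmr, Stat3, Socs3, Cdkn1a, Pdk4), the lower row genes lower at 6 hours (Cyp7a1, Srebf1, Insig1, Jun, Dusp1, Dbp). In none of the 12 do the 2 groups of arrays overlap.

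In ribosome biogenesis 10 of 34 genes rose, 1 fell and 23 did not pass, with a median change of 0.49. Nop58, a core protein of the particles that methylate ribosomal RNA, had 6.75, 6.36 and 6.54 and then 8.79, 8.62, 8.28 and 8.55, a 4.02-fold rise (2.01 ± 0.39, adjusted p = 0.00023). Tsr1 (1.79 ± 0.31, adjusted p = 5.7e-05) and Heatr1 (1.68 ± 0.25, adjusted p = 5.3e-06), needed to mature the small subunit, and Nolc1, a nucleolar scaffold (1.16 ± 0.29, adjusted p = 0.0044), rose as well, while another probe set of Heatr1 gave -0.06. Dkc1, the pseudouridine synthase of ribosomal RNA, fell (-0.69 ± 0.18, adjusted p = 0.009). The count of rises was 6 without 1-hour replicate 1, 5 without replicate 2 and 8 without replicate 3.

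In the unfolded protein and stress response 6 of 28 genes rose and 1 fell, with a median change of 0.52. Creld2, a chaperone of the endoplasmic reticulum, went from 8.40, 8.48 and 8.57 to 11.08, 11.30, 11.08 and 11.23, a 6.45-fold rise (2.69 ± 0.70, adjusted p = 0.0069). Ern1, which encodes the stress sensor IRE1, fell (-1.27 ± 0.26, adjusted p = 0.00058), but did not pass as the mean of its probe sets (adjusted p = 0.4). The rises were mostly small and their count was 2 without 1-hour replicate 1 or 3, and 3 without 1-hour replicate 2 or 6-hour replicate 1 or 3. Of 18 heat shock chaperones the small chaperone Hspb8 (1.78 ± 0.20, adjusted p = 2.8e-08) and its partner Bag3 (1.31 ± 0.29, adjusted p = 0.0012) rose and 3 fell, of which 1 was left without any 1 of the arrays but 6-hour replicates 1 and 3. Of 31 proteasome subunits 0 rose and 0 fell by the limma fit, and their changes lay between -0.22 and 0.27.

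In cholesterol synthesis and uptake 9 of 21 measured genes fell, 1 rose and 11 did not pass, with a median change of -0.92. Insig1, a sterol sensor that holds SREBP in the endoplasmic reticulum, had 10.50, 11.18 and 10.96 at 1 hour and 8.47, 8.09, 8.24 and 7.98 at 6 hours, a 6.43-fold fall (-2.69 ± 0.43, adjusted p = 1.4e-05). Fdft1, the squalene synthase, fell 4.64-fold (-2.21 ± 0.39, adjusted p = 6.5e-05), while another of its probe sets gave 0.22. Msmo1, a demethylase of the late pathway, read 10.98, 11.13 and 11.61 and then 9.57, 9.01, 9.11 and 8.74, a 4.39-fold fall (-2.13 ± 0.38, adjusted p = 7.6e-05). The synthase Hmgcs1 (-1.84 ± 0.39, adjusted p = 0.00075) and the decarboxylase Mvd (-1.82 ± 0.38, adjusted p = 0.00058) of the mevalonate steps fell too, as did Stard4, a carrier of cholesterol in the cytosol (-2.32 ± 0.36, adjusted p = 9.3e-06).

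The single gene of this list that rose was Insig2, the second INSIG protein. It had 10.03, 9.64 and 8.54 and then 11.87, 11.91, 11.97 and 11.70, a 5.50-fold rise (2.46 ± 0.44, adjusted p = 7.7e-05), so the 2 INSIG genes changed in opposite directions. The sterol element TCACNCCAC, searched on both strands, was present in 1 of the list's 22 promoter windows (4.55%) and in 1.04% of those of genes tested. The acute phase list had a larger share (8.33%). The E-box CACGTG was present in 4 of the 22 (18.2%) and in 7.39% of those of genes tested. The list of gluconeogenesis and glycogen had a similar share (18.5%). The count of falls was 6 without 1-hour replicate 2.

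In fatty acid and triglyceride synthesis 5 of 24 genes fell, 1 rose and 18 did not pass, with a median change of -0.67. The single rise ended without 1-hour replicate 1 or 2. Srebf1, the master transcription factor of lipogenesis, had 9.72, 10.96 and 10.66 at 1 hour and 7.08, 7.18, 7.06 and 7.36 at 6 hours. It fell 9.69-fold (-3.28 ± 0.58, adjusted p = 7.8e-05). Dgat2, which completes triglycerides, fell 2.35-fold (-1.24 ± 0.27, adjusted p = 0.0011), and Agpat2, an earlier enzyme of that route, fell 1.79-fold (-0.84 ± 0.19, adjusted p = 0.0014). Fasn, the fatty acid synthase and a target of SREBP-1c, had 8.57, 10.12 and 9.37 against 7.54, 7.79, 7.64 and 7.58. Its change of -1.71 ± 0.60, adjusted p = 0.057 did not pass, and it did in the fit of the 7 arrays alone (adjusted p = 0.00078) and without 1-hour replicate 1 (-2.11, adjusted p = 0.047).

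Of 26 genes of fatty acid oxidation and PPAR-alpha targets 9 rose, 0 fell and 17 did not pass, with a median change of 0.42. Pdk4, which keeps pyruvate out of mitochondrial oxidation, had 5.00, 3.96 and 4.60 and then 9.62, 9.81, 9.22 and 10.09, a 35.9-fold rise (5.17 ± 0.98, adjusted p = 0.00018). Cyp4a14, a hydroxylase of fatty acids and PPAR-alpha target, rose 21.2-fold (4.41 ± 0.89, adjusted p = 0.0004), from 6.19, 6.31 and 5.41 to 9.89, 10.11, 11.07 and 10.45. Plin2 (2.11 ± 0.33, adjusted p = 8.2e-06) and Plin5 (2.06 ± 0.39, adjusted p = 0.0002), which encode coat proteins of lipid droplets, rose, and Cidec, whose protein fuses droplets, was at least 9.76-fold higher (3.80 ± 0.79, adjusted p = 0.0006). Ppargc1a, the coactivator of mitochondrial and gluconeogenic genes, rose 3.03-fold (1.60 ± 0.39, adjusted p = 0.0034), but not without 1-hour replicate 1 (1.31, adjusted p = 0.057). Acadm, a dehydrogenase of beta-oxidation, did not pass (0.14 ± 0.12, adjusted p = 0.64). Cpt1a, which admits fatty acids to mitochondria, did not pass either (0.61 ± 0.21, adjusted p = 0.051), but it did without 1-hour replicate 3 (0.74, adjusted p = 0.041) or 6-hour replicate 1 (0.70, adjusted p = 0.04) and in the fit of the 7 arrays alone (adjusted p = 0.011). The count of rises was 6 without 1-hour replicate 2.

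Glucose genes went both ways, with 3 that rose, 5 that fell and 16 that did not pass of 24 and a median change of -0.20. Ppp1r3g, which targets protein phosphatase 1 to glycogen, had 9.21, 8.89 and 8.59 at 1 hour and 3.65, 4.09, 4.75 and 5.65 at 6 hours, a 20.6-fold fall (-4.36 ± 1.10, adjusted p = 0.0052). Irs1, the adaptor of the insulin receptor, fell 5.61-fold (-2.49 ± 0.42, adjusted p = 3.7e-05) from 8.06, 7.83 and 7.50 to 5.33, 4.93, 5.50 and 5.47, and Foxo3, a transcription factor that insulin restrains, fell 3.06-fold (-1.61 ± 0.38, adjusted p = 0.0022). Crem, a cAMP-induced transcription factor, rose 3.90-fold (1.97 ± 0.30, adjusted p = 9.1e-06), and Pfkfb3, which makes an activator of glycolysis, rose too (1.72 ± 0.44, adjusted p = 0.006). Pck1, a rate-setting enzyme of gluconeogenesis, differed by 0.00 ± 0.15, adjusted p = 1, and G6pc, which releases free glucose, had a change of -0.99 ± 0.53, adjusted p = 0.29 that passed in the fit of the 7 arrays alone (adjusted p = 0.00025). The count of falls was 3 without 1-hour replicate 2.

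Bile acid synthesis and transport held 6 falls and 0 rises among 24 genes, with a median change of -0.56, and the 6 remained whichever array was left out. Cyp7a1, whose enzyme sets the rate at which cholesterol is turned into bile acids, had 10.31, 9.40 and 10.93 at 1 hour and 3.38, 3.51, 4.30 and 4.28 at 6 hours, where its mean lay at or below the median of all probe sets. The fall was at least 74.7-fold (-6.35 ± 1.19, adjusted p = 0.00015), the deepest among the genes whose groups did not overlap and whose higher mean was above 6. Klb, the co-receptor through which FGF15 represses Cyp7a1, went from 8.48, 7.86 and 7.66 to 5.41, 5.09, 5.45 and 5.56, a 6.18-fold fall (-2.63 ± 0.41, adjusted p = 1.1e-05). Nr0b2, the repressor SHP, read 8.21, 8.70 and 8.30 and then 5.39, 5.53, 5.41 and 5.22, an 8.08-fold fall (-3.02 ± 0.72, adjusted p = 0.0031). The bile acid receptor gene Nr1h4 (-1.29 ± 0.30, adjusted p = 0.002) and Nr5a2, an activator of Cyp7a1 (-1.13 ± 0.20, adjusted p = 5.8e-05), fell too. The export pump gene Abcb11 (-0.51 ± 0.51, adjusted p = 0.7) and the uptake carrier gene Slc10a1 (-0.72 ± 0.41, adjusted p = 0.35) did not pass, though both did in the fit of the 7 arrays alone (adjusted p = 0.0011 and adjusted p = 0.00013).

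Amino acid breakdown gave 5 rises and 0 falls among 27 genes, and the same counts without 1-hour replicate 3. Aass, the first enzyme of lysine breakdown, had 10.57, 10.49 and 10.72 and then 12.41, 12.47, 12.44 and 12.42 (1.84 ± 0.25, adjusted p = 7.1e-07). Got1 (1.78 ± 0.28, adjusted p = 9.8e-06) and Gpt2 (1.07 ± 0.23, adjusted p = 0.00098), aminotransferases, and Slc25a15, the ornithine carrier of the urea cycle (0.83 ± 0.13, adjusted p = 8.5e-06), rose, while Cps1, the entry enzyme of that cycle, differed by 0.00 ± 0.14, adjusted p = 1. Of 23 drug metabolism genes 1 rose and 1 fell (8.7%, beside 10.9% of all genes), and the fall ended without 1-hour replicate 3 or 6-hour replicate 2. Cyp2b10, the main target of the receptor CAR, was near background at 1 hour with 3.74, 4.15 and 3.30 and at 8.60, 7.42, 9.13 and 8.37 at 6 hours, at least 21.0-fold higher (4.65 ± 0.86, adjusted p = 0.00012). Of 29 plasma protein genes 2 rose and 2 fell (13.8%, near the 10.9% of all genes). Rises numbered 1 without 1-hour replicate 1 or 3 or 6-hour replicate 1 or 2, and falls 0 without any 1-hour array or 6-hour replicate 1. Alb, which encodes albumin, differed by 0.01 ± 0.08, adjusted p = 0.97.

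Glucocorticoid-induced genes showed 7 rises and 2 falls among 20, with a median change of 0.56. Fkbp5, a co-chaperone of the glucocorticoid receptor and a standard target of it, averaged 7.24 ± 0.43 (SD, n = 3) at 1 hour and 10.33 ± 0.19 (SD, n = 4) at 6 hours. It rose 8.53-fold (3.09 ± 0.40, adjusted p = 3.3e-07), while another of its probe sets gave -0.04. Among genes shared with the lists above, Pdk4, Cdkn1a, Mt1, Mt2 and Lcn2 rose, while Dusp1 had the deepest fall of this list (-2.36). The count of rises was 5 without 1-hour replicate 3, where the calls of Mt1 and Mt2 ended. Nr3c1, the receptor gene itself, fell (-1.15 ± 0.15, adjusted p = 7.1e-07), while another of its probe sets gave 0.30. Tsc22d3, a further standard target of the receptor (0.05 ± 0.31, adjusted p = 0.98), and Tat, an aminotransferase that glucocorticoids induce (0.69 ± 0.28, adjusted p = 0.11), did not pass, while Tat did in the fit of the 7 arrays alone (adjusted p = 0.00097).

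Of 24 hepatocyte transcription factors 7 fell, 2 rose and 15 did not pass, with a median change of -0.22. Onecut2, a paralogue of HNF6, fell (-0.92 ± 0.23, adjusted p = 0.0042), and Cebpa, which maintains differentiated hepatocytes, fell 2.77-fold (-1.47 ± 0.42, adjusted p = 0.014), but not without 1-hour replicate 3 (-1.45, adjusted p = 0.052), where 4 falls were left. Hnf4a, the central hepatocyte factor, differed by 0.22 ± 0.13, adjusted p = 0.38, and Cebpb, a relative of Cebpa active in acute phase and regeneration, by 0.24 ± 0.24, adjusted p = 0.72. Gata6 rose (1.28 ± 0.32, adjusted p = 0.004), while another of its probe sets gave -0.14, and it was the single rise without any 1 of the arrays but 6-hour replicate 4.

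Clock genes changed in a part of the list, with 1 rise and 4 falls among 21 and a median change of -0.23. Dbp, an output transcription factor that the clock drives directly, had 9.91, 10.17 and 10.76 at 1 hour and 5.16, 6.98, 6.48 and 6.53 at 6 hours. It fell 15.9-fold (-3.99 ± 0.95, adjusted p = 0.0028), and replicate 3 was the highest 1-hour array, as for 15 of the 21 genes. The gene Clock, which encodes an activator of the loop, rose (1.07 ± 0.23, adjusted p = 0.00073), but not as the mean of its probe sets (adjusted p = 0.34). Its partner gene Arntl (1.33 ± 0.59, adjusted p = 0.17, or adjusted p = 0.0061 in the fit of the 7 arrays alone) and the repressor genes Per1 (0.62 ± 0.23, adjusted p = 0.08) and Per2 (-1.14 ± 0.42, adjusted p = 0.081) did not pass, while both repressor genes did in the fit of the 7 arrays alone (adjusted p = 0.0089 and adjusted p = 0.04) and Per2 also without 1-hour replicate 1 (-1.49, adjusted p = 0.044). The count of falls was 2 without 1-hour replicate 3. The E-box CACGTG, the site of the CLOCK protein, was present in 6 of 26 promoter windows of the list (23.1%) and in 7.39% of those of genes tested. The list of the Myc, Max and Mxd network had a similar share (23.5%). The D-box TTATGTAA or TTACGTAA, the site of Dbp, was present in 1 of the 26 (3.85%) and in 0.766% of those of genes tested. The list of activin, BMP and TGF-beta signalling had the same D-box share.

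In the growth hormone and IGF list 4 of 21 genes fell and 0 rose. One of them was Hsd3b5, a male-biased steroid enzyme that growth hormone pulses maintain, with 11.62, 10.46 and 11.23 and then 6.65, 6.28, 6.24 and 6.39. Its fall (-4.71 ± 1.42, adjusted p = 0.023) ended without 1-hour replicate 1 (-4.45, adjusted p = 0.095) or replicate 3 (-4.65, adjusted p = 0.072). The list count was 2 without any 1 of the 1-hour arrays. Igf1, the circulating growth factor, differed by 0.12 ± 0.12, adjusted p = 0.71.

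Of 21 interferon-stimulated genes 7 fell and 0 rose, with a median change of -0.51. Ddx58, which encodes the RNA sensor RIG-I, had 7.20, 7.28 and 7.01 and then 5.46, 5.78, 5.51 and 5.45, a 3.06-fold fall (-1.61 ± 0.30, adjusted p = 0.00016), while another of its probe sets gave 0.08. Ifih1, the related sensor MDA5, fell (-1.16 ± 0.24, adjusted p = 0.00078). The count was 3 without 1-hour replicate 1, 2 without 1-hour replicate 2 and 4 without 1-hour replicate 3 or 6-hour replicate 2. Of 22 chemokine genes 0 rose and 1 fell (4.5%, beside 10.9% of all genes), Cxcl12, the ligand of CXCR4 (-1.54 ± 0.27, adjusted p = 5.6e-05). The neutrophil attractant gene Cxcl1 had 9.82, 10.74 and 9.86 and then 11.97, 11.81, 11.78 and 11.98 and did not pass (1.75 ± 0.79, adjusted p = 0.18, or adjusted p = 6.5e-05 in the fit of the 7 arrays alone).

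Hypoxia genes gave 5 rises and 1 fall among 21. Hif1a, which encodes the oxygen-regulated transcription factor subunit, had 8.35, 8.60 and 8.49 and then 9.98, 9.72, 9.73 and 9.65, a 2.45-fold rise (1.29 ± 0.23, adjusted p = 7.8e-05), and its relative Epas1 rose 2.01-fold (1.01 ± 0.25, adjusted p = 0.004). Adm, a vasodilator peptide gene that HIF induces, rose (1.24 ± 0.25, adjusted p = 0.0005). Vegfa, an angiogenic factor gene that HIF also induces, fell (-0.85 ± 0.21, adjusted p = 0.0036), and the glycolytic target Pgk1 differed by -0.01 ± 0.15, adjusted p = 0.99.

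Of 15 Kupffer cell markers 1 fell, the iron exporter gene Slc40a1 already given, and 0 rose, with a median change of -0.56 and negative changes in 13. The share called was 6.7%, beside 10.9% of all genes. The count of falls was 1 without 1-hour replicate 2, where Slc40a1 changed by -2.33, adjusted p = 0.00074, and 2 without replicate 3. Clec4f, a lectin particular to Kupffer cells, had 6.86, 7.56 and 6.40 and then 6.06, 5.88, 5.88 and 6.16 (-0.94 ± 0.38, adjusted p = 0.11), and Cd5l, a secreted macrophage protein, had 8.06, 8.99 and 7.53 and then 6.66, 6.65, 6.79 and 6.91 (-1.44 ± 0.53, adjusted p = 0.075). Csf1r, the receptor that macrophages need for survival, had 8.39, 9.15 and 7.87 and then 7.14, 6.95, 7.24 and 7.28 (-1.32 ± 0.47, adjusted p = 0.067). The groups of these 3 did not overlap, and all 3 were highest in 1-hour replicate 2. They passed in the fit of the 7 arrays alone, with adjusted p = 0.0074 for Clec4f, adjusted p = 0.0018 for Cd5l and adjusted p = 0.0016 for Csf1r. Without replicate 2 in the fit of all other arrays Clec4f differed by -0.64, adjusted p = 0.5, Cd5l by -1.05, adjusted p = 0.39 and Csf1r by -0.98, adjusted p = 0.35. Of 14 monocyte and macrophage markers 0 passed, and their summed level was 9.66 to 10.55 at 1 hour and 9.60 to 10.29 at 6 hours. Of 10 dendritic cell markers 0 passed, and their summed level was 8.94 to 9.17 and then 8.56 to 8.75, without overlap. Their median change was -0.15 (2 positive, 8 negative). Of 8 cholangiocyte markers 0 passed, and their summed level was 8.82 to 8.91 and then 8.04 to 8.48, also without overlap. Their median change was 0.02 (5 positive, 3 negative), and 3 of the 8 lay at or below the median of all probe sets at both times. The brightest members weigh most in such a sum, so it does not describe the cholangiocyte markers as a set.

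Sinusoidal endothelial markers gave 2 rises and 0 falls among 15 (13.3%, near the 10.9% of all genes), with a median change of 0.24 (11 positive, 4 negative). Their summed level was 10.13 to 10.31 at 1 hour and 10.56 to 10.91 at 6 hours. The sum adds unlogged levels, so a large rise in 1 gene, such as Lyve1, weighs heavily in it. Lyve1, a hyaluronan receptor of sinusoidal and lymphatic endothelium, had 4.79, 5.08 and 5.22 and then 8.66, 7.86, 8.46 and 8.60, a 10.3-fold rise (3.37 ± 0.69, adjusted p = 0.00055). Cdh5, which encodes the endothelial adhesion protein VE-cadherin, rose 2.14-fold (1.10 ± 0.26, adjusted p = 0.0024). The other 13, among them the scavenger receptor genes Stab1 (0.46 ± 0.26, adjusted p = 0.33, or adjusted p = 0.0086 in the fit of the 7 arrays alone) and Stab2 (0.06 ± 0.29, adjusted p = 0.96), did not pass. Of 13 neutrophil markers only Hdc, the histidine decarboxylase, passed (1.32 ± 0.34, adjusted p = 0.0058), which is 7.7% beside 10.9% of all genes. Hdc passed without 1-hour replicate 2 as well (1.37, adjusted p = 0.019), again as the single marker of the list. The 11 hepatocyte markers had a summed level of 16.51 to 16.58 at 1 hour and 16.59 to 16.61 at 6 hours, so both groups carried the signature of liver tissue.

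Several of the largest changes were in genes outside all lists. Thbd, which encodes the anticoagulant receptor thrombomodulin, was near background at 1 hour with 3.87, 3.72 and 3.82 and at 8.27, 7.97, 8.12 and 7.94 at 6 hours, at least 16.9-fold higher (4.27 ± 0.45, adjusted p = 5.4e-09). Rab30, a small GTPase of the Golgi, had 5.96, 5.07 and 5.49 and then 9.70, 9.75, 9.95 and 10.69, a 22.9-fold rise (4.52 ± 0.63, adjusted p = 1.2e-06). Tead1, the DNA-binding partner of the Hippo effector YAP, rose 15.6-fold (3.96 ± 0.41, adjusted p = 3.4e-09), and Gpat3, an acyltransferase of triglyceride synthesis, rose 15.2-fold (3.93 ± 0.56, adjusted p = 2.2e-06). Enc1, an actin-binding protein gene, rose 12.9-fold (3.69 ± 0.70, adjusted p = 0.00018).

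Among the deepest falls was Arrdc3, an arrestin-like adaptor of receptor turnover, with 9.31, 9.24 and 8.78 at 1 hour and 4.74, 4.50, 4.58 and 4.48 at 6 hours, a 23.2-fold fall (-4.54 ± 0.65, adjusted p = 2.3e-06). Mid1ip1, which promotes the polymerization of acetyl-CoA carboxylase and so fat synthesis, had 8.21, 9.41 and 8.88 and then 5.53, 5.54, 5.45 and 5.45, a 10.1-fold fall (-3.34 ± 0.57, adjusted p = 4.3e-05). Keg1 fell 20.8-fold (-4.38 ± 1.13, adjusted p = 0.0064), Nrep 15.1-fold (-3.92 ± 0.70, adjusted p = 8.1e-05) and Kank2 9.50-fold (-3.25 ± 0.32, adjusted p = 9.4e-10). Gprin3 was at least 7.80-fold lower (-3.88 ± 0.43, adjusted p = 9.9e-09). These 4 fell with no overlap between the groups. All the genes of this paragraph and the one before kept their calls whichever array was left out.

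Mean levels in the untreated livers (5 arrays) and at 12 hours (4 arrays) set the step in context, as a description with no test. Jun stood at 8.32 in untreated liver, 10.04 at 1 hour, 7.95 at 6 hours and 8.08 at 12 hours. Atf3, a stress-induced transcription factor, read 4.88, 7.65, 6.76 and 5.58 in the same order, and its change from 1 to 6 hours was -0.89 ± 0.45, adjusted p = 0.26, or adjusted p = 0.028 in the fit of the 7 arrays alone. Both had their highest mean at 1 hour.

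Other genes had their highest or lowest mean at 6 hours. Socs3 read 7.24, 8.36, 11.07 and 9.97, and Cdkn1a 5.11, 5.10, 10.01 and 8.17. Both were highest at 6 hours. Cyp7a1 read 9.97, 10.21, 3.87 and 7.25, and Irs1 8.38, 7.80, 5.31 and 6.42, both lowest at 6 hours. Tead1 read 5.81, 5.47, 9.43 and 6.94, so it too was highest at 6 hours.

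**Figure D5:**
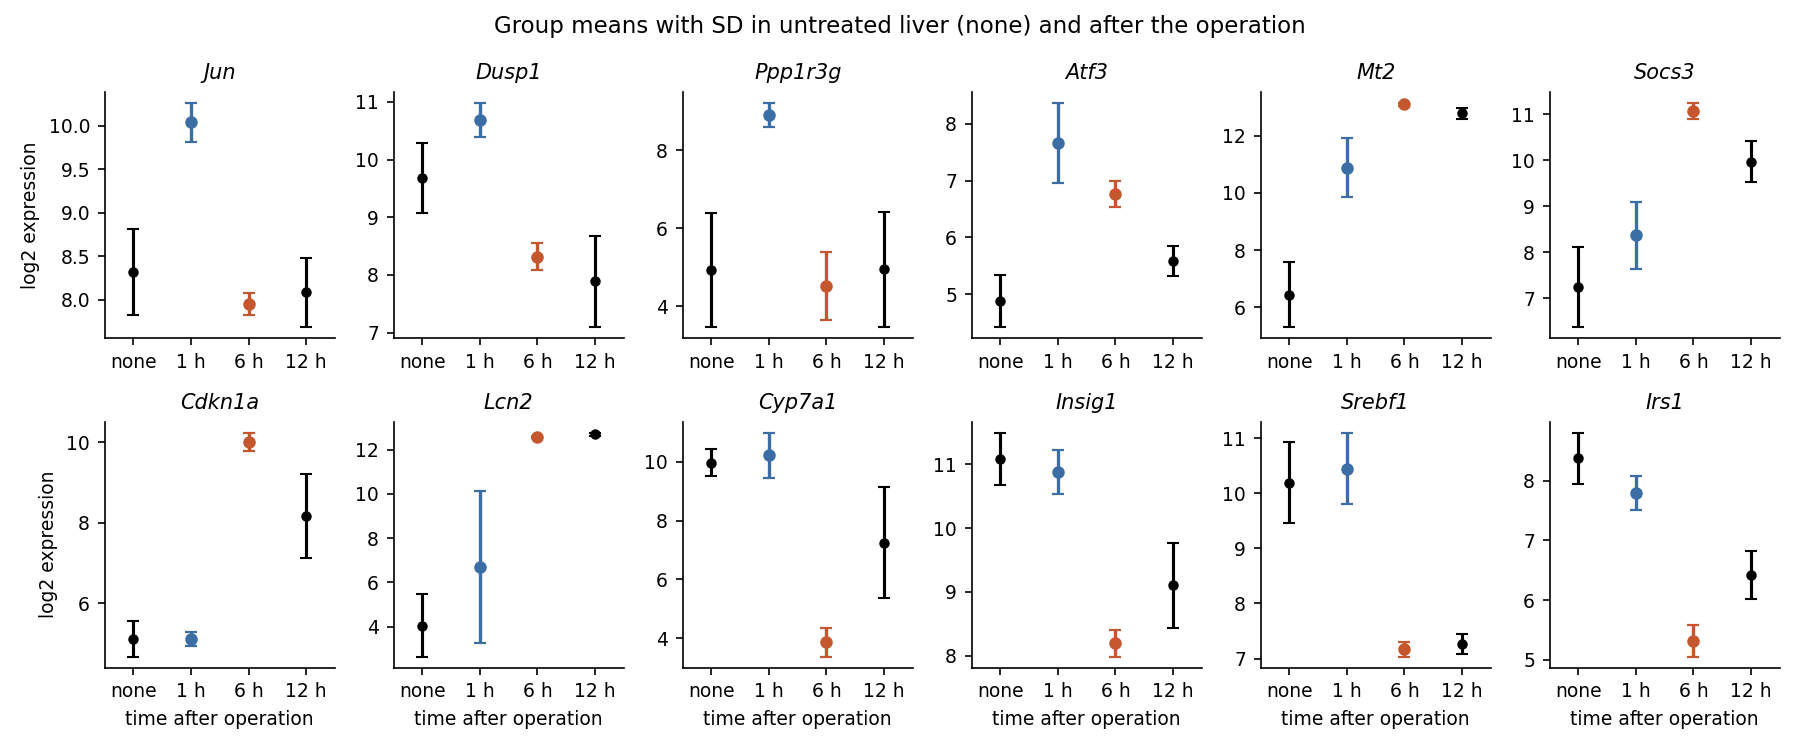
Mean log2 level with SD bars of 12 genes in untreated liver (5 arrays) and at 1 hour (3 arrays), 6 hours (4 arrays) and 12 hours (4 arrays) after the operation. Jun and Atf3 have their highest mean at 1 hour, Socs3 and Cdkn1a at 6 hours, and Cyp7a1, Insig1 and Irs1 their lowest mean at 6 hours.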

How the data were processed

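Total RNA of each liver sample was measured on its own Affymetrix array of the mouse genome. The values the authors deposited are log2 summaries of 45101 probe sets. Per the submitters' processing notes they were computed with the RMA method of oligo 1.52.0. RMA forces arrays onto a common distribution, so a change common to most genes would not show. The sources used here do not say which arrays were normalized as a set. Precision is limited by the number of arrays. The platform annotation gives 1 gene for 34944 probe sets and several for 932, and 9211 are not in it. The 64 controls may be counted among these, so the counts do not add to 45101. Symbols were updated through RefSeq for 18032 of 18193 genes. Each gene took its probe set with the highest mean.

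Group means of all 52 arrays were fitted with limma 3.58.1 in R 4.3.3 (moderated by eBayes), because the groups are small, and 6 hours minus 1 hour was tested, two-sided, with Benjamini-Hochberg adjustment. A group mean at or below 3.99, the median probe set level of the 7 arrays, was taken as not separated from background, and the fold is then a lower bound. The procedure was tested on simulated data with 50 changed genes of each size among 18193 genes. It found 28% of those changed by 0.5 log2 units, 90% at 1 and 100% at 2 and 3, with 10 false calls. The simulated noise was normal and independent, with 1 spread per gene in all groups, and only 200 genes were changed. The data have single arrays that stand apart and more called genes, so these shares need not hold for them.

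The members and gene lists (32 pathways, 12 cell types, 882 of 953 listed members measured) were chosen with earlier results of these data known. The rule for naming genes took 54 index genes, of which 53 were measured, the 15 highest and 15 lowest called genes without overlap and with a higher mean above 6, up to 8 called members per list with up to 3 in the rarer direction, and any member whose value accounts for its list. Among these, names were chosen after values were seen. The 16 other settings tried included a replicate block. Same-numbered arrays of the 2 times did not deviate together (r 0.006, -0.038 and 0.017), so the numbers were not taken as pairs. Promoter windows, the 250 bases before a gene start, came from RefSeq on GRCm38.p6, with 32851 windows of 27025 genes searched for motifs on both strands.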

Additional observations from a re-analysis of the deposited data

Results flagged for a closer look

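Among the 157 named genes, 8 had a single 6-hour array far from the other 3. This was judged by Dixon's ratio of the gap to the range against its 95% critical value. Chance gives such a gap in about 1 in 20 groups, which is near the share found here. Replicate 4 had the highest Agpat2 (9.17, others 8.84 to 8.87), Keg1 (6.38, others 5.70 to 5.81) and Stab1 (6.61, others 6.36 to 6.40). Replicate 1 had the highest Ifih1 (7.03, others 6.90 to 6.92) and the lowest Met (7.53, others 7.87 to 7.92) and Osmr (7.06, others 7.37 to 7.43). Replicate 2 had the lowest Mt2 (13.03, others 13.10 to 13.11) and Slc39a14 (10.93, others 11.11 to 11.12).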

How the results depend on the processing

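Of the 157 named genes, 0 changed direction under the alternatives run where either fit called the gene. Several settings could not have changed it. Among them, the fit of the 7 arrays alone and the stricter thresholds keep the same difference of group means. The setting with every probe set kept the same probe set of each gene in this check. Other probe sets with changes of opposite sign, some given above, therefore did not enter it singly. The replicate block gave 2073 changed genes, 834 higher and 1239 lower, ended the calls of Saa1 (3.05, adjusted p = 0.055) and Fgb, put 3 other named genes past the threshold and changed no other call among the named genes. The fit of the 7 arrays alone gave 4795 changed genes, 1975 higher and 2820 lower, array weights 4870, 2046 and 2824, the fit without 7 arrays of other groups that stand apart by Xist, the Gapdh difference or their correlation with their own group 2994, 1221 and 1773, an adjusted p under 0.01 1141, 447 and 694, and a change of at least 2-fold 918, 382 and 536. Testing every probe set gave 1282 probe sets higher, a count of probe sets and not of genes. Leaving out 1 array gave 1294 to 1637 changed genes, 490 to 698 higher and 804 to 992 lower. In the fit of the 7 arrays alone the members higher and lower numbered 14 and 14 for immediate early genes, 2 and 15 for cholesterol, 3 and 15 for fatty acid synthesis and 4 and 8 for the clock, with 18 acute phase and 19 ribosome genes higher. With array weights they numbered 11 and 10, 2 and 15, 3 and 14, and 4 and 9, with 21 acute phase and 19 ribosome genes higher. Without these 7 arrays 17 ribosome genes and 3 clock genes were higher, and 10 fatty acid and 7 clock genes lower. At an adjusted p under 0.01, 5 acute phase, 5 ribosome and 0 fatty acid genes were higher and 3 fatty acid genes lower. At 2-fold, 6 acute phase and 5 ribosome genes were higher, and 0 ribosome and 3 fatty acid genes lower. Clock members higher numbered 0 with the mean of probe sets and 3 with the poly-A covariate. Leaving out 1 array gave 3 to 14 acute phase genes higher, 4 to 6 and 3 to 4 immediate early genes higher and lower, 5 to 10 ribosome genes higher, 6 to 8 cholesterol genes lower, 0 to 1 and 4 to 6 fatty acid genes higher and lower, and 2 to 5 clock genes lower. The cause of these differences was not tested. Of the 110 named genes that passed, 84 kept their call under all 22 settings and 12 lost it when some array was left out. Genes near background, such as Mki67 and Il6, have levels that signal over background limits.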
